A study of Mus musculus with 10 samples.

Results

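The MHC class II presentation genes described here are 7 genes: the classical chains H2-Aa, H2-Ab1 and H2-Eb1, the peptide-loading chains H2-DMa and H2-DMb1, the invariant chain gene Cd74 and the transactivator gene Ciita. They were taken by name, each with the transcript that the deposited count table marks as the gene's representative, from 18594 genes in all, and all 7 were found. Their levels are given across 10 RNA sequencing libraries of mouse intestine in 4 groups, together with 11 genes of MHC class I presentation for comparison. In the mm9 build the table places H2-DMa at chr17:34272616-34275480, H2-DMb1 at chr17:34290136-34297174, H2-Ab1 at chr17:34400172-34406363 and H2-Eb1 at chr17:34442812-34453619, all on the plus strand, and H2-Aa on the minus strand at chr17:34419696-34424716. Ciita lies on chromosome 16, where its representative transcript runs from 10488271 to 10527657, and Cd74 on chromosome 18, from 60963503 to 60972306, both on the plus strand.

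3 libraries held Foxl1 positive cells and 3 held Foxl1 negative cells, sorted from intestinal mesenchyme of Foxl1Cre mice of mixed strain. Foxl1 positive replicates 1 and 2 carried Rosa-YFP as reporter, while Foxl1 positive replicate 3 and all Foxl1 negative replicates carried Rosa-mTmG. 2 libraries held Lgr5 positive cells from mice with the allele Lr5-EGFP-IRES CreERT2 (spelled so in the labels), also of mixed strain, with a male behind replicate 1 and a female behind replicate 2. 2 libraries held differentiated epithelium of wild type C57BL/6J mice. The study asked whether telocytes, Foxl1 positive mesenchymal cells beneath the gut epithelium, supply Wnt ligands to the crypts, where Lgr5 marks the stem cells. Foxl1Cre reports cells that have expressed Foxl1, and the labels give no age and tie no library to an animal, so p-values reflect only library-to-library spread, part of which may be technical. Strain and group cannot be told apart for differentiated epithelium, which matters for these genes because the H2 locus differs between strains. All Foxl1 negative libraries shared 1 sequencing run and every other library had its own, so run and group cannot be told apart either.

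Class II molecules are pairs of an alpha and a beta chain that show peptides from endocytosed proteins to CD4+ T cells. Cd74 fills the groove of new pairs and guides them to endosomes, where cathepsins degrade it and the H2-DM pair exchanges its last fragment for peptide, an exchange that H2-DO inhibits in B cells. Ciita has no DNA-binding domain of its own. It joins the RFX, CREB and NF-Y factors on the X, X2 and Y boxes of class II promoters. B cells, dendritic cells and macrophages make class II without induction, whereas other cells, the small intestinal epithelium among them, do so under interferon-gamma.

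Promoters of some members and of other class II chains are shown, searched for the boxes on which Ciita acts. The part of these boxes in the levels below was not tested. RefSeq promoter windows (build GRCm38.p6, 250 bases before to 50 after the start) were found by gene name for 4 of the 7 members, H2-Aa, H2-Eb1, H2-DMa and H2-DMb1, and for 4 of 5 other class II chains in the count table. Those of H2-DMa belong to starts other than that of the counted transcript. H2-Eb1, H2-DMb1 and H2-Ob share a single shift between mm9 and GRCm38.p6. By that shift the H2-Aa and H2-DMb2 windows also belong to starts upstream of the counted ones, by less than the length of a window. Distances below are from the start that each window belongs to. Both strands were searched for ATTGG (the Y box), AACNGATG (the X box core) and TGACGTCA (the X2 box), none of which overlapped another in the windows below. Capitals mark the matches in H2-Aa, H2-Eb1 and H2-DMb1, in H2-DMb2, the second DM beta gene, and in H2-Ob, the DO beta gene.
H2-Aa (chr17:34287774-34288073, minus strand): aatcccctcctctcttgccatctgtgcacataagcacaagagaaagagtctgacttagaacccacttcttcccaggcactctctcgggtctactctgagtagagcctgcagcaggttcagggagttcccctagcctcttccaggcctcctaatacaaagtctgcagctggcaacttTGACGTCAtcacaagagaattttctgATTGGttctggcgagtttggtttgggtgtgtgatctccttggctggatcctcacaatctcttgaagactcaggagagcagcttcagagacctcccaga
H2-Eb1 (chr17:34305617-34305916, plus strand): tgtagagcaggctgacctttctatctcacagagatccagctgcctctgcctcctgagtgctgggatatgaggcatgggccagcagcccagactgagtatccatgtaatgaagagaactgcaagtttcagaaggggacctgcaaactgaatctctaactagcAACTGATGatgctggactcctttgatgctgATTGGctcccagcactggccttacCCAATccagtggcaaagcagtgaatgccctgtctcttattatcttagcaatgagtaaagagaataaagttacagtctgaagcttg
H2-DMb1 (chr17:34152941-34153240, plus strand): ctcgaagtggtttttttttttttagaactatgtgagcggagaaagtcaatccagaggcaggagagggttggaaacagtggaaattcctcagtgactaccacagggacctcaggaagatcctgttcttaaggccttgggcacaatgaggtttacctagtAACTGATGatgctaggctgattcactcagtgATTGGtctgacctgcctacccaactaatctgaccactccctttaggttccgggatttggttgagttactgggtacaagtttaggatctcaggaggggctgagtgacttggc
H2-DMb2 (chr17:34144999-34145298, plus strand): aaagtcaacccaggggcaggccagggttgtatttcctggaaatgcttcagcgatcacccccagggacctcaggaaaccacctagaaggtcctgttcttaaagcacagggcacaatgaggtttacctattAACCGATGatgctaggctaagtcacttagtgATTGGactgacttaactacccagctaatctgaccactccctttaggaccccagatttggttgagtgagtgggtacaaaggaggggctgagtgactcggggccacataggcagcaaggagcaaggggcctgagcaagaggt
H2-Ob (chr17:34238655-34238954, plus strand): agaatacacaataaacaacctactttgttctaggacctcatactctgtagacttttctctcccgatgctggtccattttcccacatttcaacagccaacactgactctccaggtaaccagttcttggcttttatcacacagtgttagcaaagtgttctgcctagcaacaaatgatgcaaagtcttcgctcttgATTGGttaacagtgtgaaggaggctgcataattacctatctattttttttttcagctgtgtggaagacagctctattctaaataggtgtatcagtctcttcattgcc

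ATTGG began 48 bases before the start of H2-Aa, 59 before that of H2-Eb1, 61 before that of H2-DMb1, 57 before that of H2-Ob and 90 before that of H2-DMb2. The H2-Eb1 window held a second match on the opposite strand, CCAAT, 35 bases before its start. AACNGATG stood upstream of ATTGG in H2-Eb1, H2-DMb1 and H2-DMb2, at 89, 92 and 121 bases before the start, and TGACGTCA at 74 bases before the start of H2-Aa. Of the windows not printed, that of H2-Eb2 held both AACTGATG and ATTGG, 130 and 100 bases before its start. The H2-Oa window held ATTGG alone, 43 bases before its start. Of 32851 windows of this length, 37.4% held ATTGG, 2.32% AACNGATG, 1.79% TGACGTCA and 0.88% both ATTGG and AACNGATG. The 2 H2-DMa windows held a single ATTGG, 198 bases before 1 of the starts, and none of the other letters searched. Among the class II chains, H2-Oa and H2-DMb1 lie on either side of H2-DMa and shift by the same distance between mm9 and GRCm38.p6. By that shift the H2-DMa windows lie kilobases upstream of the counted H2-DMa transcript, so they do not describe its promoter.

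Total counts were 4368332 to 11167676 in the Foxl1 positive, 1311205 to 13440838 in the Foxl1 negative, 46415489 to 99628145 in the Lgr5 positive and 79516088 to 80910717 in the differentiated libraries. The Foxl1 negative libraries had counts for 1992, 4097 and 5966 genes, against 14332 to 16237 in the other groups, and stand apart in all that follows. Levels are CPM, counts scaled to library size with factors from the trimmed mean of M values (TMM) over all 10 libraries. Foxl1 itself was at 0.155, 31.0 and 11.6 CPM in Foxl1 positive replicates 1 to 3 and at 0 in the Foxl1 negative ones, and Lgr5 at 269 and 375 CPM in the Lgr5 positive ones. Pdgfra, which marks mesenchyme, lay at 815 to 1643 CPM in the Foxl1 positive libraries. It was at 731 and 816 CPM in Foxl1 negative replicates 1 and 2, but at 2.51 CPM in replicate 3, where 8 B cell genes summed to 3629 CPM. Replicate 3 was not without mesenchymal RNA, with Dcn at 3378, Col3a1 at 1683 and Col1a1 at 65.4 CPM. The 8 mesenchymal genes, Pdgfra among them, summed to 8082, 11550 and 6343 CPM in Foxl1 negative replicates 1 to 3, with counts for 4, 7 and 7 of them. Both mesenchymal groups also held epithelial RNA, with Epcam at 651, 618 and 40.4 CPM in Foxl1 positive and 305, 920 and 78.5 CPM in Foxl1 negative replicates 1 to 3. Other pan-epithelial genes were nearly absent from the Foxl1 negative libraries, Cdh1 at no more than 0.0464 CPM and Cdx2 at 0. Krt8, Krt18 and Krt19 were at 0.605, 0 and 0 CPM in replicate 1 but at 2974, 516 and 2369 CPM in replicate 2. Of the 7 genes of this list 3, 5 and 6 had counts in Foxl1 negative replicates 1 to 3. 7 enterocyte genes summed to 1870, 5920 and 69.4 CPM in the Foxl1 positive and to 16680, 10420 and 1503 CPM in the Foxl1 negative libraries.

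All 7 members had their highest mean level in differentiated epithelium in TMM-scaled CPM. The order against the Foxl1 negative group depended on the scale: with CPM without TMM factors the Foxl1 negative mean was above the differentiated one for H2-Ab1, Cd74 and Ciita, and by FPKM for Ciita (9.96 against 8.90). On the scale of FPKM, which divides by transcript length, Cd74 led in differentiated epithelium at 2674 ± 770 FPKM (SD, n = 2), followed by H2-Aa at 1284 ± 176, H2-Ab1 at 1121 ± 322 and H2-Eb1 at 427 ± 128. H2-DMa at 152 ± 62.7 FPKM and H2-DMb1 at 122 ± 36.4 were lower, and Ciita was lowest at 8.90 ± 0.445. In Lgr5 positive cells Cd74 was again first at 415 ± 201 FPKM (SD, n = 2) and Ciita last at 1.34 ± 0.311. The chains of the A and DM pairs were near each other in both epithelial groups by FPKM. H2-Aa stood at 0.915 and 1.03 times H2-Ab1 in the Lgr5 positive and at 1.04 and 1.30 times in the differentiated libraries. H2-DMa stood at 1.09 and 1.15 times H2-DMb1 in the Lgr5 positive and at 1.33 and 1.12 times in the differentiated libraries.

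**Figure D1:**
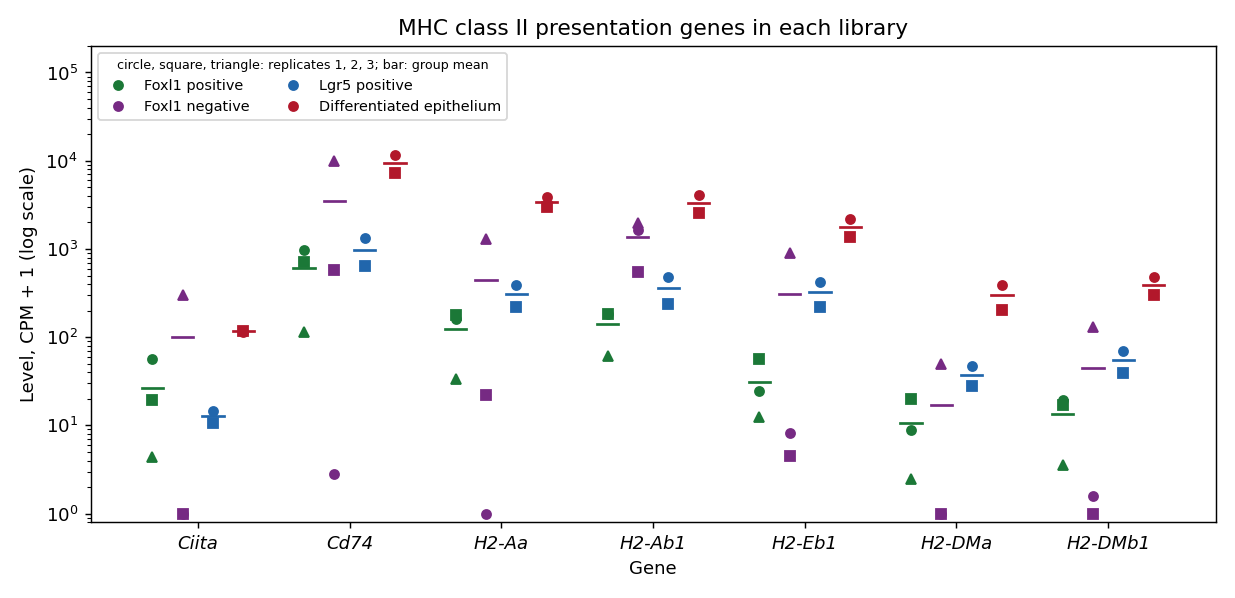
Level of each MHC class II presentation gene in each of the 10 libraries, in CPM + 1 on a log axis, with a bar at the group mean of CPM. Both differentiated epithelium libraries lie above both Lgr5 positive libraries for every gene, and Foxl1 negative replicate 3 (triangle) lies far above the other Foxl1 negative libraries for every gene but H2-Ab1.

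Ciita, the coactivator of the class, was at 115 and 117 CPM in the differentiated libraries and at 13.8 and 9.79 CPM in the Lgr5 positive ones. In Foxl1 positive replicates 1 to 3 it was at 55.5, 18.2 and 3.37 CPM. Foxl1 negative replicates 1 and 2 had no Ciita count, which allows up to 1.81 and 0.399 CPM at 3 counts per library, while replicate 3 had 300.1 CPM. The differentiated libraries thus lay between replicate 3 and all others, and the ranges of neighbouring groups in the order of means (differentiated, Foxl1 negative, Foxl1 positive, Lgr5 positive) overlapped.

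Cd74, the chaperone of new class II pairs, was at 11620 and 7302 CPM in differentiated epithelium, 1327 and 644 CPM in Lgr5 positive cells and 978, 708 and 114 CPM in Foxl1 positive cells (in replicate order). The Foxl1 negative libraries spread from 1.81 CPM, or 3 counts, over 581 to 9840 CPM. Differentiated epithelium lay above both the Lgr5 positive and the Foxl1 positive libraries without overlap, while the Foxl1 negative range spanned every other group's libraries but the highest.

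H2-Aa, the A alpha chain, was at 3839 and 3003 CPM in differentiated epithelium, 392 and 219 CPM in Lgr5 positive cells, 161, 175 and 33.0 CPM in Foxl1 positive cells and 0, 20.9 and 1294 CPM in Foxl1 negative cells. Its partner H2-Ab1, the A beta chain, was at 4102 and 2582 CPM, 478 and 238 CPM, 183, 182 and 59.5 CPM, and 1634, 548 and 1948 CPM in the same order of groups. H2-Ab1 alone was high in all 3 Foxl1 negative libraries. There the A chains parted: replicate 1 had 2701 counts of H2-Ab1 and none of H2-Aa, and replicate 2 had 4117 and 157, whereas replicate 3 had 42000 and 27895. By FPKM H2-Aa was thus at 0, 0.0426 and 0.741 times H2-Ab1. In no other library was this ratio under 0.619.

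H2-Eb1, the E beta chain, was at 2203 and 1361 CPM in differentiated epithelium, 425 and 217 CPM in Lgr5 positive cells, 23.7, 56.1 and 11.6 CPM in Foxl1 positive cells and 7.26, 3.46 and 904 CPM in Foxl1 negative cells. All differentiated libraries were above all others, and the Lgr5 positive libraries above the Foxl1 positive ones. Its ratio to H2-Ab1 by FPKM was 0.635 and 0.650 in the Lgr5 positive libraries, 0.384 and 0.377 in differentiated epithelium, and 0.0926 to 0.220 in Foxl1 positive cells, without overlap among these groups. In Foxl1 negative replicates 1 to 3 it was 0.00318, 0.00451 and 0.332, a range that spanned the Foxl1 positive one. The E alpha gene, which many strains including C57BL/6J lack in working form and which the table lists as H2-Ea-ps, had no count outside Foxl1 positive replicate 3 (1.26 CPM) and differentiated replicate 1 (0.0273 CPM). The strains behind the mixed libraries are not given, and the part of H2 haplotype in the H2-Eb1 ratio was not tested.

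The H2-DM chains were lower than the classical chains by FPKM in both epithelial groups. H2-DMa, the alpha chain, was at 391 and 204 CPM in differentiated epithelium, 45.68 and 26.98 CPM in Lgr5 positive cells, 7.91, 19.2 and 1.47 CPM in Foxl1 positive cells and 0, 0 and 48.4 CPM in Foxl1 negative cells. H2-DMb1, a beta chain, was at 482 and 298 CPM, 69.2 and 38.7 CPM, 18.4, 16.0 and 2.52 CPM, and 0.605, 0 and 129 CPM in the same order. For both genes every differentiated library exceeded every other library, and every Lgr5 positive library exceeded every Foxl1 positive one.

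Lgr5 positive cells carried less of every member than differentiated epithelium. All 7 members were lower, by 5.53-fold (H2-Eb1) to 11.2-fold (H2-Aa), and for all 7 both Lgr5 positive libraries lay below both differentiated ones. The fitted log2 differences, Lgr5 positive minus differentiated ± SE, were -3.30 ± 0.326 for Ciita, -3.48 ± 0.388 for H2-Aa, -3.22 ± 0.436 for H2-Ab1, -2.47 ± 0.420 for H2-Eb1, -3.03 ± 0.429 for H2-DMa, -2.85 ± 0.404 for H2-DMb1 and -3.26 ± 0.445 for Cd74. Adjusted p by edgeR's quasi-likelihood test, with Benjamini-Hochberg adjustment over 14534 genes, ran from 6.92e-05 (Ciita) to 0.00109 (H2-Eb1). With all 10 libraries in 1 fit the log2 differences were nearly the same (-3.47 for H2-Aa, -2.46 for H2-Eb1), but no member passed (edgeR adjusted p 0.388 to 0.771), nor did any other gene, at a common dispersion of 1.84 against 0.0937 in the fit of the 2 groups. The groups differed widely: 66.3% of all genes tested were called in either direction, 31.9% lower and 34.4% higher, and 35.3% of genes had both Lgr5 positive libraries below both differentiated ones, so a lower call by itself is common here. The median log2 difference of the members was -3.22, against 0.12 over all genes tested.

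The TMM factors of the differentiated libraries were 0.460 and 0.501, against 1.07 to 1.60 in the others. With library totals alone as the scale, the median of all genes moved to 1.27 and that of the members to -2.06, all 7 stayed lower, and the background became 17.7% lower and 54.1% higher. Without Lgr5 positive replicate 1 the log2 differences of H2-Ab1, H2-Eb1 and Cd74 came to -3.84, -3.07 and -3.91. In these bulk libraries, fewer cells with class II RNA and less such RNA per cell cannot be told apart.

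Other genes of the presentation route shared the direction in part. Of 8 antigen processing genes 7 were lower in Lgr5 positive cells, with a list median of -1.92, and 1 was higher. Cathepsin S (Ctss), the protease that trims Cd74, was at 66.4 and 74.4 CPM in Lgr5 positive and 563 and 468 CPM in differentiated libraries, a log2 difference of -2.87 ± 0.294 (edgeR adjusted p = 8.23e-05). The proteases Ctsd (-2.94 ± 0.335) and Ctsl (-2.06 ± 0.300) and the ubiquitin ligase March8 (-2.79 ± 0.302) were also called lower. The exception was March1, a ligase that removes class II from the surface, named after its values were seen: it was at 0.887 and 1.35 CPM against 0.0547 and 0.222 CPM.

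Of 8 genes of the interferon-gamma route that were tested, 6 were lower and none higher, with a list median of -1.94. They included the receptor chain Ifngr2 (-2.68 ± 0.317), the kinase Jak2 (-2.32 ± 0.312) and the transcription factor Irf1 (-2.30 ± 0.301). The ligand gene Ifng reached at most 0.219 CPM in either epithelial group. Of 11 class I presentation genes 9 were lower, with a list median of -2.53, led by the peptide transporter Tap2 (-4.58 ± 0.449), the heavy chains H2-K1 (-3.55 ± 0.367) and H2-D1 (-3.41 ± 0.361) and the loading factor Tapbp (-2.98 ± 0.353). The 2 class I genes not called were Nlrc5, the class I counterpart of Ciita (-0.10 ± 0.475), and the trimming peptidase Erap1 (0.56 ± 0.357), both named after their values were seen.

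The factors that Ciita joins at the promoter moved in both directions. Of 7, the cAMP-responsive factor Creb1 (2.29 ± 0.360), the RFX subunit Rfxap (1.63 ± 0.334) and the NF-Y subunit Nfyb (1.40 ± 0.313) were higher in Lgr5 positive cells, and the RFX subunit Rfxank (-1.42 ± 0.290) was lower. Rfx5 (0.89 ± 0.428), the third RFX subunit, and the NF-Y subunits Nfya (0.60 ± 0.291) and Nfyc (-0.41 ± 0.364) did not pass the edgeR test, with adjusted p of 0.0990, 0.101 and 0.342. The list median was 0.89.

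**Figure D2:**
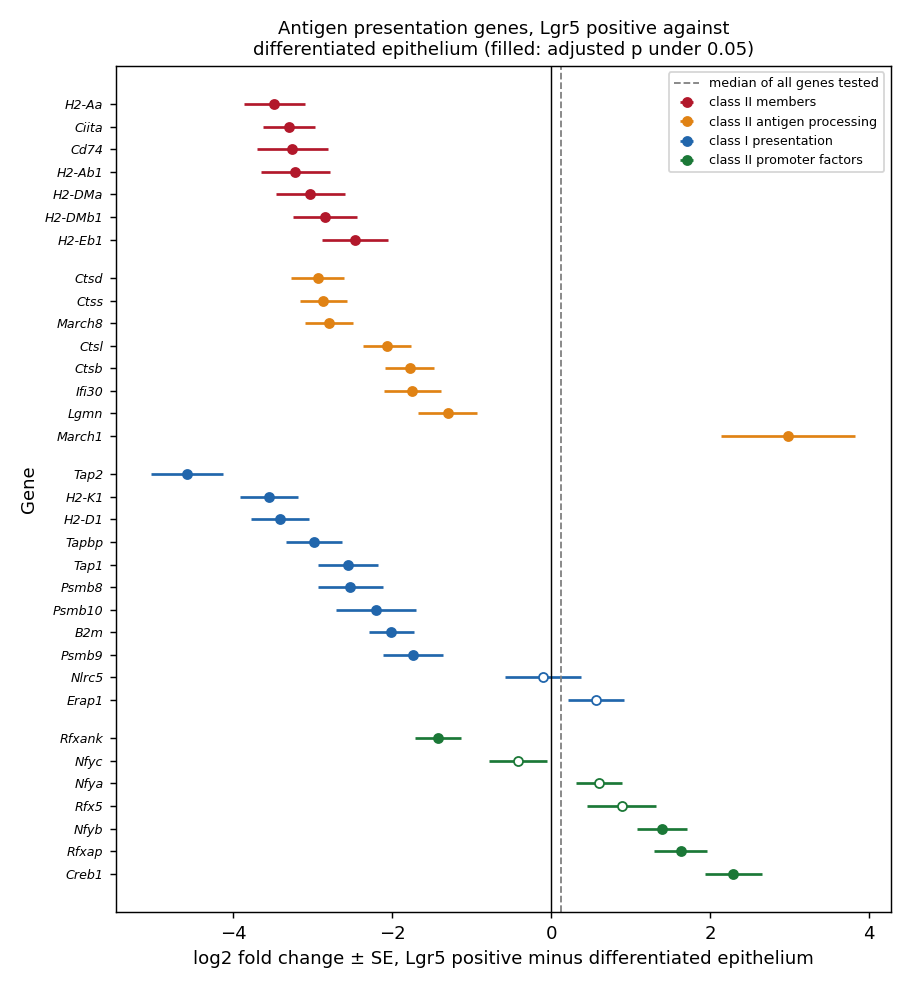
Log2 difference ± SE of each gene, Lgr5 positive minus differentiated epithelium (2 libraries each), grouped by role, with filled points at edgeR adjusted p under 0.05. The 7 class II members lie between -3.48 and -2.47, left of the median of all genes at 0.12, while 3 of the 7 promoter factors lie to its right with filled points.

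Leukocyte RNA differed between the same groups, and its part in the class II difference was not tested. Of 6 pan-leukocyte genes 5 were lower in Lgr5 positive cells. Laptm5, a lysosomal membrane protein of leukocytes, was at 0.363 and 0.310 CPM in Lgr5 positive and 35.1 and 37.6 CPM in differentiated libraries. The 8 T cell genes summed to 3.54 to 5.82 against 201 to 215 CPM, the 8 dendritic cell genes to at most 0.302 against 9.13 to 15.0 CPM, the 10 macrophage genes to 5.79 to 6.81 against 8.70 to 25.6 CPM, and the 8 B cell genes to 3.65 to 4.19 against 2.00 to 2.71 CPM. Cd79a, a part of the B cell receptor, was at 0.0273 and 0.321 CPM in differentiated epithelium. The dendritic cell sum there was nearly all Itgax, an integrin gene, at 8.72 and 13.6 CPM. Every other gene of that list was at or under 0.518 CPM in differentiated epithelium. Ptprc, the sixth pan-leukocyte gene, was at 8.34 and 57.6 CPM in Lgr5 positive and 36.0 and 55.9 CPM in differentiated libraries.

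The level of Cd74 against that of leukocyte genes differed widely between libraries. The ratio of Cd74 to Laptm5 in CPM was 3660 and 2080 in Lgr5 positive cells and 331 and 194 in differentiated epithelium. It was 3.42, 1.96 and 3.65 in Foxl1 positive replicates 1 to 3 and 17.6 in Foxl1 negative replicate 3. Foxl1 negative replicate 2 had Cd74 at 581 CPM with no Laptm5 count (up to 0.399 CPM), and so also combined much Cd74 with little Laptm5. These ratios are compared between libraries only, and depend on the leukocyte gene. Against Ptprc the ratio was 159 and 11.2 in Lgr5 positive and 323 and 131 in differentiated libraries, against 3.24, 1.45 and 5.13 in Foxl1 positive replicates 1 to 3 and 53.9 in Foxl1 negative replicate 3, so Lgr5 positive replicate 2 then lay below the last.

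**Figure D3:**
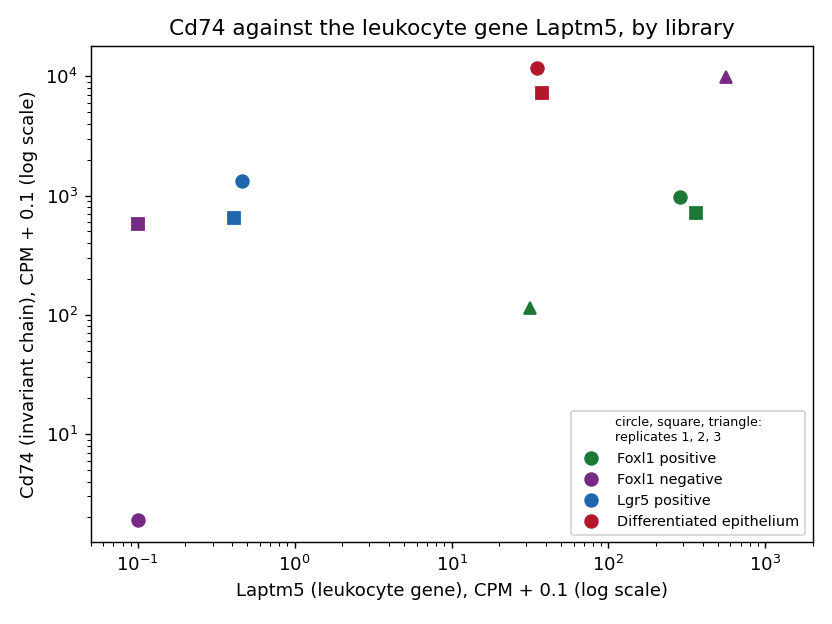
Cd74 against the leukocyte gene Laptm5 in each library, in CPM + 0.1 on log axes. The Lgr5 positive libraries combine 1327 and 644 CPM of Cd74 with under 0.4 CPM of Laptm5, whereas the Foxl1 positive libraries have 31.4 to 361 CPM of Laptm5 and no more than 978 CPM of Cd74.

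Foxl1 positive cells had less of the class II chains than differentiated epithelium. 5 of the 7 members were called lower by edgeR, where 7.19% of 13876 genes tested were called lower and 10.6% higher: H2-Eb1 by -5.64 ± 1.00 (log2 ± SE, adjusted p = 0.0216), H2-DMb1 by -4.74 ± 0.991 (0.0287), H2-Ab1 by -4.33 ± 0.937 (0.0302), H2-Aa by -4.56 ± 1.04 (0.0343) and H2-DMa by -4.72 ± 1.11 (0.0361). Cd74, at -3.73 ± 1.21, and Ciita, at -1.91 ± 1.07, did not pass (adjusted p = 0.0723 and 0.224). All 7 had every Foxl1 positive library below both differentiated ones, as did 30.8% of all genes. The median of the members was -4.56, against 0.32 over all genes.

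These calls depended on single libraries, but the share of all genes called also changed widely between these fits, as given in the closing section. No member passed without Foxl1 positive replicate 1 or without either differentiated replicate, H2-Eb1 alone passed without Foxl1 positive replicate 2 (where H2-DMa stood at -5.73 and H2-Eb1 at -6.44), and 6 passed without Foxl1 positive replicate 3. With library totals alone, the median of all genes moved to 1.40 and that of the members to -3.47, 4 were called lower, and the background became 2.87% lower and 17.9% higher. Of the interferon-gamma route 2 of 8 genes were lower, Ifngr2 (-3.48 ± 0.654) and Irf1 (-2.60 ± 0.678), and none higher. Of the class I genes 1 of 11 was lower, the immunoproteasome subunit Psmb10 (-3.68 ± 0.876), and 1 higher, Nlrc5 (2.99 ± 0.746), at 69.4, 117 and 57.0 CPM against 8.42 and 15.4 CPM. Among the promoter factors Creb1 was higher (2.53 ± 0.692) and Rfxank lower (-2.74 ± 0.750), and the other 5 did not pass. Of the antigen processing genes the thiol reductase Ifi30 (-3.40 ± 0.702) and Ctss (-3.72 ± 1.02) were lower, and the other 6 did not pass.

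Between Foxl1 positive and Lgr5 positive cells none of the 7 members passed edgeR's test, against 5.72% of 14259 genes in either direction, 4.84% higher and 0.884% lower. At an unadjusted p under 0.05 the count was 1, H2-Eb1 (-3.15 ± 0.830, adjusted p = 0.0731), which DESeq2 called. limma on log2(FPKM + 1) called 5. The share of all genes called was also larger with DESeq2 and limma than with edgeR, as given in the closing section. Without Foxl1 positive replicate 3 edgeR called H2-Eb1 as well (-2.74, adjusted p = 0.0317). The remaining estimates were -1.06 ± 0.834 for H2-Aa, -1.10 ± 0.737 for H2-Ab1, -1.67 ± 1.11 for H2-DMa, -1.87 ± 0.961 for H2-DMb1, -0.46 ± 1.01 for Cd74 and 1.39 ± 1.23 for Ciita. The groups did not overlap for 5 members, all lower in Foxl1 positive cells, as for 29.7% of all genes, and overlapped for Cd74 and Ciita. The median of the members was -1.10 and that of all genes 0.06. This comparison shares its libraries with both comparisons above.

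Between Foxl1 positive and Foxl1 negative cells none of the 7 members passed edgeR's test in either direction, and none had an unadjusted p under 0.05, while 42.2% of 11204 genes were called higher and 0% lower. H2-Ab1 alone had every Foxl1 positive library (59.5 to 183 CPM) below every Foxl1 negative one (548 to 1948 CPM), as had 0.575% of all genes. Its estimate was -2.65 ± 1.54 (edgeR adjusted p = 0.262), and it was called lower by DESeq2 (-3.09, adjusted p = 0.0442), by limma on log2(FPKM + 1) (-3.29, adjusted p = 0.0433) and by edgeR with all 10 libraries in 1 fit (-3.29, adjusted p = 0.0282). In these fits 40.3%, 31.9% and 46.2% of all genes tested were called. Lower calls were 75 of 16746, 17 of 10773 and 68 of 14683 genes. The other members ranged from -2.86 ± 2.48 (H2-Eb1) to -0.30 ± 2.37 (H2-DMa). The median of the members was -1.49, against 3.47 over all genes. With library totals alone these medians moved to -2.39 and 2.58, and again no member passed.

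The levels of most members on the Foxl1 negative side were set by replicate 3, where the members summed to 14460 CPM against 1153 CPM in the lowest library of the group. Without it the fitted direction turned for 6 members, and 3 were called higher in Foxl1 positive cells by edgeR: H2-DMa (9.37, adjusted p = 0.0230), H2-DMb1 (6.70, adjusted p = 0.0352) and Ciita (10.8, adjusted p = 0.0157), with 63.9% of all genes called. H2-DMa and Ciita then stand against libraries with no count, so their fitted values are no measure of size. H2-Ab1 stayed lower at -2.09 (edgeR adjusted p = 0.300). The enterocyte genes Apoa1, Apoa4 and Fabp1, and the sum of the enterocyte list, were also higher in these 2 libraries than in any Foxl1 positive one. Sis and Anpep were instead lower there than in Foxl1 positive replicates 1 and 2, and Alpi and Krt20 were high in Foxl1 negative replicate 2 only. The part of epithelial RNA in the H2-Ab1 level was not tested. Replicate 3 was also the library with Cd79a at 568 CPM and Ms4a1 at 386 CPM, B cell genes that were at or under 0.133 CPM in replicates 1 and 2. The part of these cells in the group's class II level was not tested.

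Among the Foxl1 positive libraries the members' sum and Laptm5 were both lowest in replicate 3. The members summed to 226 CPM there and to at most 1427 CPM in the group, and Laptm5 was at 286, 361 and 31.4 CPM in replicates 1 to 3. Of the leukocyte lists, 4 were also lowest in replicate 3. In replicates 1 to 3 the 6 pan-leukocyte genes summed to 927, 1279 and 136 CPM and the 8 B cell genes to 30.55, 80.1 and 7.36 CPM. The 8 T cell genes summed to 601, 763 and 30.3 CPM and 5 genes of type 3 innate lymphoid cells to 320, 748 and 3.58 CPM. The 10 macrophage genes summed to 305, 48.7 and 105 CPM and the 8 dendritic cell genes to 6.75, 20.3 and 15.4 CPM, and neither was lowest in replicate 3. The dendritic cell sums rested mostly on Xcr1 in replicate 1 and on Ccr7 in replicate 2. Replicate 3, the Rosa-mTmG library, had the least epithelial RNA, 149 CPM summed over 7 genes against up to 2780 CPM. The part of leukocyte or epithelial RNA in the Foxl1 positive levels was not tested. Within the Rosa-mTmG reporter, replicate 3 against the 3 Foxl1 negative libraries, no member passed edgeR's test, and none of all genes did (0%).

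The remaining class II chains were low in epithelium. H2-DMb2, the second DM beta gene, was at 159 CPM in Foxl1 negative replicate 3 and at 0.0775, 9.88 and 1.89 CPM in Foxl1 positive replicates 1 to 3. It reached 0.0806 and 0.0188 CPM in Lgr5 positive cells and 0.492 and 0.542 CPM in differentiated epithelium. By FPKM, H2-DMb2 stood at 2.02 times H2-DMb1 in Foxl1 negative replicate 3 and at 1.01 and 1.23 times in Foxl1 positive replicates 2 and 3, but at 0.00688 times in Foxl1 positive replicate 1 and at no more than 0.00297 times in any epithelial library. The longest protein-coding transcripts of the pair matched at 96.0% of 1045 aligned bases (GENCODE M21), so reads could be shared between them, and how the authors counted such reads is not given in the sources used here.

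The DO genes, whose product inhibits DM, were nearly absent from epithelium. H2-Ob, the beta chain, was at 133 CPM in Foxl1 negative replicate 3, at 15.6, 18.7 and 0.631 CPM in Foxl1 positive cells and at most 0.685 CPM in the epithelial libraries. H2-Oa, the alpha chain, was at 10.2, 9.54 and 0.421 CPM in Foxl1 positive cells and 0.629 and 0.567 CPM in differentiated epithelium. It had no count in the Lgr5 positive libraries, which allows up to 0.0192 CPM over the group, nor in Foxl1 negative replicate 3, where 3 counts are 0.139 CPM, although H2-Ob was high there. H2-Eb2, a second E beta gene, was at 0.155, 6.06 and 2.74 CPM in Foxl1 positive cells and at most 0.592 CPM in epithelium. Of these 4 chains, edgeR called H2-Oa and H2-DMb2 lower in Lgr5 positive than in differentiated cells and none against Foxl1 positive cells, at levels close to the floor on the Lgr5 side.

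**Figure D4:**
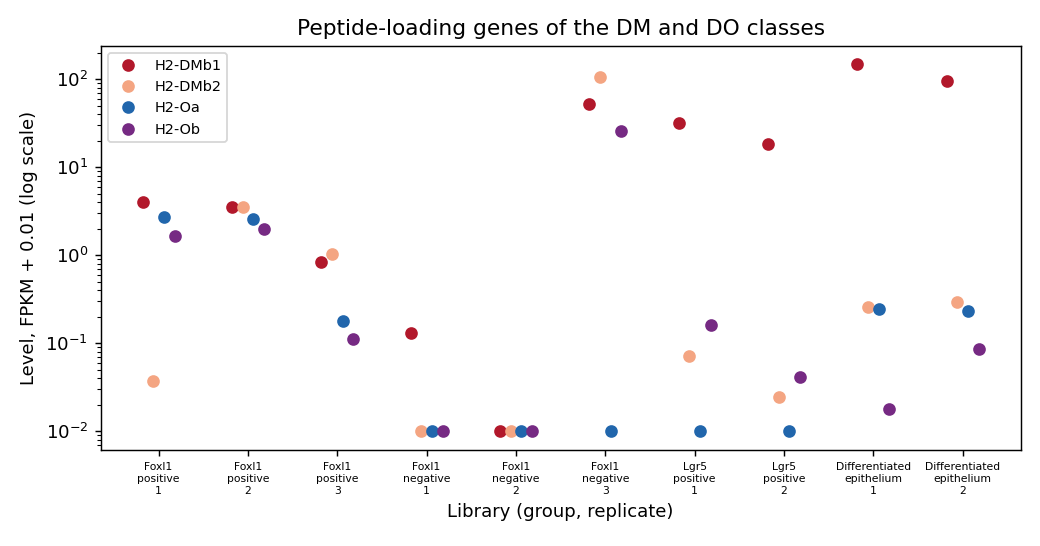
Levels of H2-DMb1, H2-DMb2, H2-Oa and H2-Ob in each library, in FPKM + 0.01 on a log axis. In the 4 epithelial libraries H2-DMb1 stands far above the other 3 genes, whereas in Foxl1 negative replicate 3 H2-DMb2 stands at 2.02 times H2-DMb1.

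Ciita has alternative first exons, and the table counts 3 transcripts that start at 10480165, 10488271 and 10489874 on chromosome 16 (mm9) and end together. In order along the chromosome these are the starts of promoter I, used in dendritic cells and macrophages, promoter III, used in B cells, and promoter IV, which answers to interferon-gamma in other cells. The transcripts share 17 inner exons and differ in a first exon of 368, 146 or 84 bases, so where reads were counted by the exons they fall in, their counts differ only by reads in these exons. In differentiated epithelium the promoter IV transcript had 30 reads (replicate 1) and 20 reads (replicate 2) more than the transcript with the fewest, of 4235 and 4777 in all, while promoters I and III had at most 1. In Foxl1 negative replicate 3 the excess was 93 reads of 6471 and lay entirely on promoter III. In Foxl1 positive replicate 2 it was 12 reads of 162, also on promoter III.

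The Lgr5 positive libraries gave no single first exon: replicate 1 had 7 reads more on each of promoters III and IV, of 683, and replicate 2 had 1 on promoter IV, of 1043. Foxl1 positive replicates 1 and 3 had equal counts on all 3 transcripts, 716 and 16, so no first exon stood out, and nothing can be said of promoter use there. The excess over the lowest transcript was under 10% of the gene's count in any library, and no test was made between libraries.

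**Figure D5:**
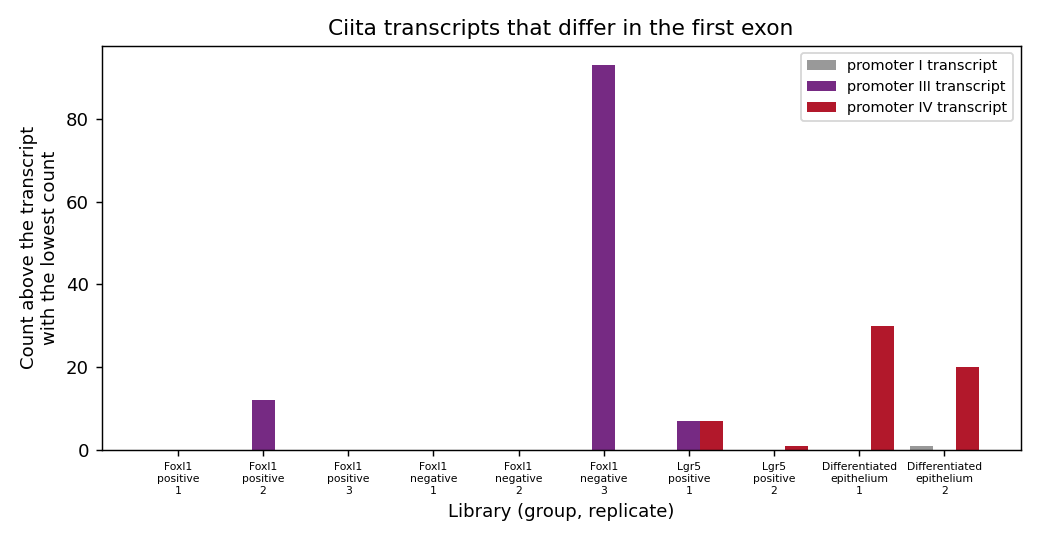
Reads of each Ciita transcript in excess of the transcript with the fewest, by library, a measure of reads in its first exon relative to that transcript. The excess lies on promoter IV in both differentiated libraries (30 and 20 reads) and on promoter III in Foxl1 negative replicate 3 (93) and Foxl1 positive replicate 2 (12).

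Cd74 is spliced into a long and a short form that differ by 1 exon of 192 bases, which encodes a thyroglobulin-type domain that inhibits cathepsins. Reads that counted for the long form alone made up 0.369% and 0.606% of its reads in Lgr5 positive cells and 1.17% and 1.12% in differentiated epithelium. The shares were 1.55%, 0.903% and 2.39% in Foxl1 positive replicates 1 to 3 and 1.30% in Foxl1 negative replicate 3. Both Lgr5 positive libraries lay below every other library with reads in the exon. With 2 libraries against 2, the smallest two-sided exact permutation p is 0.333, so that test cannot pass at this size, and no other was made on these shares. Foxl1 negative replicate 2 had no read in the exon among 4364.

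Cd74 kept a like ratio to H2-Ab1 in the 4 epithelial libraries. It stood at 2.34 and 2.28 times by FPKM in Lgr5 positive cells and at 2.39 and 2.38 times in differentiated epithelium, against 1.62 to 4.50 times in Foxl1 positive cells and 0.000936, 0.894 and 4.26 times in Foxl1 negative cells. Cd74 per Ciita was 358 and 244 in Lgr5 positive and 375 and 231 in differentiated libraries by FPKM, and lower, 65.4 to 145, in the Foxl1 positive libraries and in Foxl1 negative replicate 3 (122).

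Among genes with a mean of at least 10 CPM, those whose log2(CPM + 1) followed the members' mean most closely over the 10 libraries included Liph (Pearson r = 0.987), Ctss (0.979), Snx20 (0.965), Pkp3 (0.965), B3galt4 (0.963), Faah (0.959) and Sbk1 (0.958). Libraries with few genes counted share zeros, so these values describe the 10 libraries only. Liph, a phospholipase gene, was at 235 and 255 CPM in differentiated epithelium, 25.8 and 19.5 CPM in Lgr5 positive cells, 2.31 to 17.7 CPM in Foxl1 positive cells and 136 CPM in Foxl1 negative replicate 3. Ctss, described above, was at 305 CPM in Foxl1 negative replicate 3 and 5.47 to 57.4 CPM in Foxl1 positive cells.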

How the data were processed

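RNA of sorted cells was measured in 10 libraries. Per the file headers, the deposited tables hold raw read counts for 24082 transcripts and FPKM values, which divide reads by transcript length and depth. CASAVA 1.8.2, edgeR and build mm9 are named in the submitters' processing notes. The sources used here do not give the aligner, the counter, strand use or the treatment of reads that match several genes. Each gene was represented by the transcript the authors marked. The quasi-likelihood test of edgeR 4.0.16 (R 4.3.3) was run with TMM scaling, filterByExpr and robust glmQLFit, 2-sided with Benjamini-Hochberg adjustment, each comparison with its 2 groups alone, at adjusted p under 0.05. DESeq2 1.42.0, limma 3.58.1 on log2(FPKM + 1), which understates the change of low genes, other scalings and filters, and fits without single libraries were alternatives. The code was tested on simulated counts. A count of 0 allows up to 3 counts, and this floor covers counting error only, since without molecular identifiers reads may repeat 1 molecule. Replicates differed far beyond sampling noise (chi-square per degree of freedom 148 or more), so none was a copy of another.

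The members and gene lists were chosen with earlier results of these data known. The genes named were the members, the other class II chains and promoter factors that were detected, up to 4 genes of smallest p in each other list, and the 8 genes most like the members. Some genes that this rule takes are left out here. Promoter windows came from RefSeq and transcript sequences and exons from GENCODE M21.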

Additional observations from a re-analysis of the deposited data

How the results depend on the processing

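The 7 lower calls between Lgr5 positive cells and differentiated epithelium held under every alternative run except the fit of all 10 libraries, which called 0 and also took the background to 0%; the common dispersion was 1.84 there against 0.0937. Fits without 1 of the 2 replicates of a group (range 7 to 7) assume that the lone sample varies like the other group, so they test the values rather than the spread. Against differentiated epithelium, the 5 calls in Foxl1 positive cells went to 0 with all 10 libraries in 1 fit and to 0 to 6 without single replicates, and the background from 17.8% to 0% (all 10 libraries), 11.3% (no filter), 27.8% (limma), 32.5% (DESeq2) and 0% to 43.9% (single replicates left out). Between Foxl1 positive and Lgr5 positive cells the 0 calls became 1 with DESeq2, 5 and 3 with limma at pseudocounts of 1 and 0.1, and 0 to 1 without single replicates; the background of 5.72% became 20.6%, 29.7%, 21.4% and 0% to 22.8%, and 0% with all 10 libraries. limma turned Ciita there to -0.11 and -0.41, and Cd74 ran from -1.02 to 0.15 with single replicates left out, above 0 without Foxl1 positive replicate 3 (0.04) or Lgr5 positive replicate 1 (0.15).

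Between Foxl1 positive and Foxl1 negative cells the 0 calls became 1 (H2-Ab1) with DESeq2, with all 10 libraries and with limma at either pseudocount, and 0 to 3 without single replicates. The background of 42.2% became 40.3% with DESeq2, 46.2% with all 10 libraries, and 31.9% and 40.2% with limma at pseudocounts of 1 and 0.1. limma at a pseudocount of 1 turned H2-Aa to 0.93, H2-DMa to 0.24 and Cd74 to 0.26, and at 0.1 turned H2-Aa to 2.05, H2-DMa to 1.94, H2-DMb1 to 1.19, Cd74 to 0.78 and Ciita to 0.68. With single replicates left out, values ran from -1.91 to 4.39 for H2-Aa, -3.64 to 3.37 for H2-Eb1, -1.29 to 9.37 for H2-DMa, -1.89 to 6.70 for H2-DMb1, -2.60 to 1.90 for Cd74 and -2.72 to 10.8 for Ciita, all turned without Foxl1 negative replicate 3, and H2-DMa also without Foxl1 positive replicate 3 (0.18). The cause of these changes was not tested.

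The labels do not say that a replicate number marks an animal or day. Correlations of deviations did not show pairing in 3 comparisons (-0.157 to 0.134). Between the epithelial groups the value was 0.405. With 2 libraries per group both pairs give the same value by construction, so it cannot decide whether these libraries were paired. With the replicate number as a block, the calls were 0 between the mesenchymal groups (background 0%), where H2-Aa (3.85), H2-Eb1 (1.87), H2-DMa (7.06), H2-DMb1 (5.33), Cd74 (1.13) and Ciita (8.45) turned, 7 between the epithelial groups, 6 against differentiated epithelium (background 34.3%) and 1 against Lgr5 positive cells (background 22.7%), where Cd74 turned to 0.12.

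With plain CPM, 4 rather than 7 members were highest in differentiated epithelium: Foxl1 negative cells led for H2-Ab1 (1945 against 1590 CPM), Cd74 (5492 against 4502) and Ciita (160.5 against 55.8). Library totals as the scale were chosen after seeing the data. Depth limits Foxl1 negative replicate 1 most, where 3 counts are 1.81 CPM, against at most 0.631 CPM in any other library.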
